A study of Macaca mulatta with 136 samples.

Results

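Neural retina and RPE/choroid were compared at a single location, the periphery, in the same eyes. All 8 peripheral libraries of the 32 in the series were used, 4 of neural retina and 4 of RPE/choroid, with the 16 of 136 deposited sequencing lanes that belong to them summed by library. The eyes were the right (OD) and left (OS) eyes of 2 adult rhesus macaques, RM03 and RM04. Their ages were 13 and 18 years, and which animal had which age is not given. No treatment or genetic change is named for either animal, and the groups differed in tissue, with the animal entered as a covariate. Each library came from a 2 mm punch taken after death, from which the neural retina was lifted off the pigment epithelium and the choroid, and only RNA with an integrity number above 6.5 was kept. The RPE and the choroid were not separated from each other, so that RPE/choroid holds an epithelium together with vessels, pigment cells, nerves, stroma and immune cells. Values are given below in the order RM03 OD, RM03 OS, RM04 OD and RM04 OS.

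The neural retina converts light into nerve signals: rods and cones absorb light in their outer segments, bipolar, amacrine and horizontal cells process the signal, ganglion cells send it to the brain, and Müller glia span the layer and support it. The retinal pigment epithelium (RPE) lies against the outer segments, engulfs their shed tips, absorbs stray light with melanin and regenerates the visual chromophore. The choroid beneath is a bed of fenestrated vessels in pigmented connective tissue, and it feeds the RPE and the photoreceptors through Bruch's membrane.

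Each retina library held between 68510797 and 78574055 estimated counts and each RPE/choroid library between 62751376 and 69034355. Between 15106 and 15466 entries reached 10 counts in a retina library, and between 15357 and 15560 in an RPE/choroid library. Levels are given as CPM, the counts of a gene relative to the size of its library after scaling by the trimmed mean of M values (TMM), and differences as log2 fold changes, retina minus RPE/choroid, with their standard errors, so that a negative value means a higher level in RPE/choroid. A gene was called when its adjusted p, from edgeR's quasi-likelihood test with Benjamini-Hochberg adjustment over all genes tested, was under 0.05. The replicates were eyes, 2 from each animal, so that the p-values rest on few animals.

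Most of the transcriptome differed between the tissues. Of 15701 genes tested, 10619 were called, or 67.6%. Of these, 5342 (34% of those tested) were higher in retina and 5277 (33.6%) were higher in RPE/choroid. In 9762 genes (62.2%) the 4 libraries of a tissue did not overlap those of the other tissue. The median log2 fold change over all genes tested was 0.04, the median size of the change was 0.92 and the median standard error was 0.20. These shares are the background for the counts that follow, since a gene picked without regard to its function was called in either direction in about the share given here.

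The largest differences lay on the RPE/choroid side. At least 8-fold higher levels were called for 1046 genes in retina (6.66%) and for 1670 genes in RPE/choroid (10.6%). Among called genes that reached a mean of 100 CPM in the higher tissue and moved alike in 4 of 4 eyes, 1170 were higher in retina and 1090 in RPE/choroid. None of the former and 53 of the latter differed by more than 128-fold, which is 7 on the log2 scale. With an eye left out, 48 to 56 of the latter did so, and of the former 6 without RM03 OD, 3 without RM04 OS and 0 without either of the other eyes. The 8-fold genes of the retina also had the wider errors, with a median standard error of 0.64 against 0.37 for those of RPE/choroid, and the median coefficient of variation of their level in RPE/choroid was 0.761. The plot of mean levels shows this shape, with rod genes at the right edge still well above the foot of the vertical axis.

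**Figure D1:**
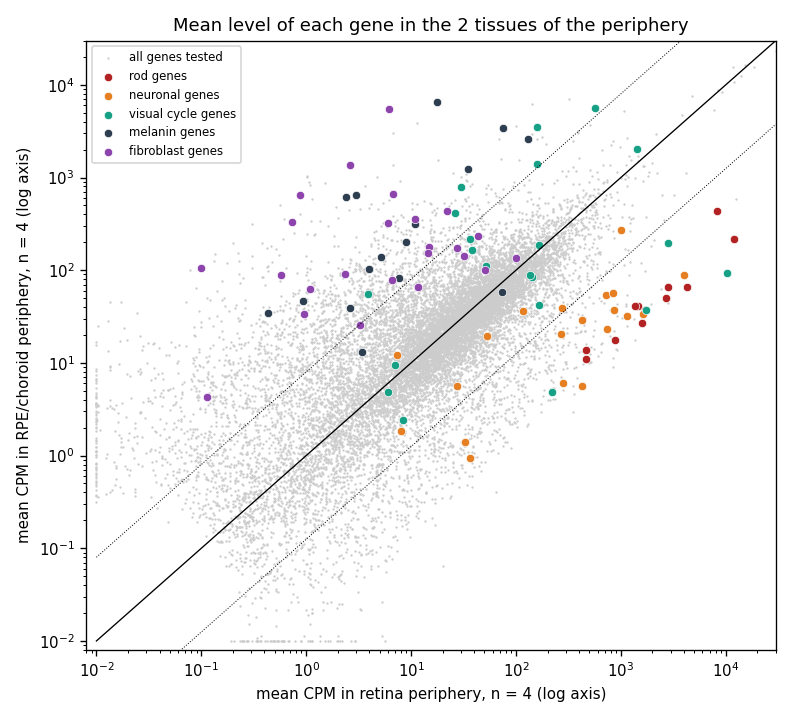
Mean CPM of each gene tested in the 4 retina libraries (horizontal, log axis) against the 4 RPE/choroid libraries (vertical, log axis) of the periphery, with means under 0.01 drawn at 0.01. The solid line marks equal levels and the dotted lines 8-fold differences. The 12 rod genes (red) lie below the lower dotted line at RPE/choroid levels above 10 CPM, whereas fibroblast (purple) and melanin genes (dark) reach retina levels near 1 CPM or less.

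Transcripts of each layer were present in the other. Summed over the 12 rod genes analysed, the level in RPE/choroid was 4.26, 1.22, 1.76 and 3.66% of that in the retina of the same eye (2.73 ± 1.46%, SD, n = 4). The 6 RPE marker genes analysed (RPE65, BEST1, LRAT, RGR, TTR and SLC26A4) reached in retina 3.32, 48.2, 11.5 and 6.55% of their summed level in RPE/choroid (17.4 ± 20.8%, n = 4). The value of 48.2% belonged to RM03 OS, and the mean of the other 3 eyes was 7.14%. With all 32 libraries scaled together, these markers summed to 548, 1050, 1017 and 1199 CPM in retina. In RPE/choroid they summed to 16327, 2281, 8771 and 18169 CPM. The retina sum of RM03 OS thus lay within the range of the other eyes, whereas its RPE/choroid sum was the lowest. A difference in bulk tissue cannot tell fewer cells of a type apart from less RNA per cell, and it cannot tell a transcript made in a layer apart from a transcript carried over in dissection.

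The RPE/choroid library of RM03 OS stood apart from the other 3. The 21 RPE genes analysed summed to 23758, 4660.1, 13864 and 26662 CPM in the 4 RPE/choroid libraries in order, lowest in that library. Schwann cell genes summed to 8401, 20522, 2086 and 2714 CPM, highest in that library. Melanin and melanosome genes, which RPE cells and choroidal melanocytes share, differed little between the same libraries, at 18349, 14768, 15379 and 16050.4 CPM. In the plot of summed lists by eye, RM03 OS is the lowest RPE/choroid point for RPE genes and the highest for Schwann cell genes and for pericyte and smooth muscle genes. Calls of named genes that change without RM03 OS are therefore given both ways. For lists, leaving it out changed the count in either direction by at most 2 genes. Folds of called genes that change by more than 1.5 times when any single eye is left out are given with the value without that eye, on the log2 scale. Whether the punch, the dissection or the eye set these levels was not tested.

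**Figure D2:**
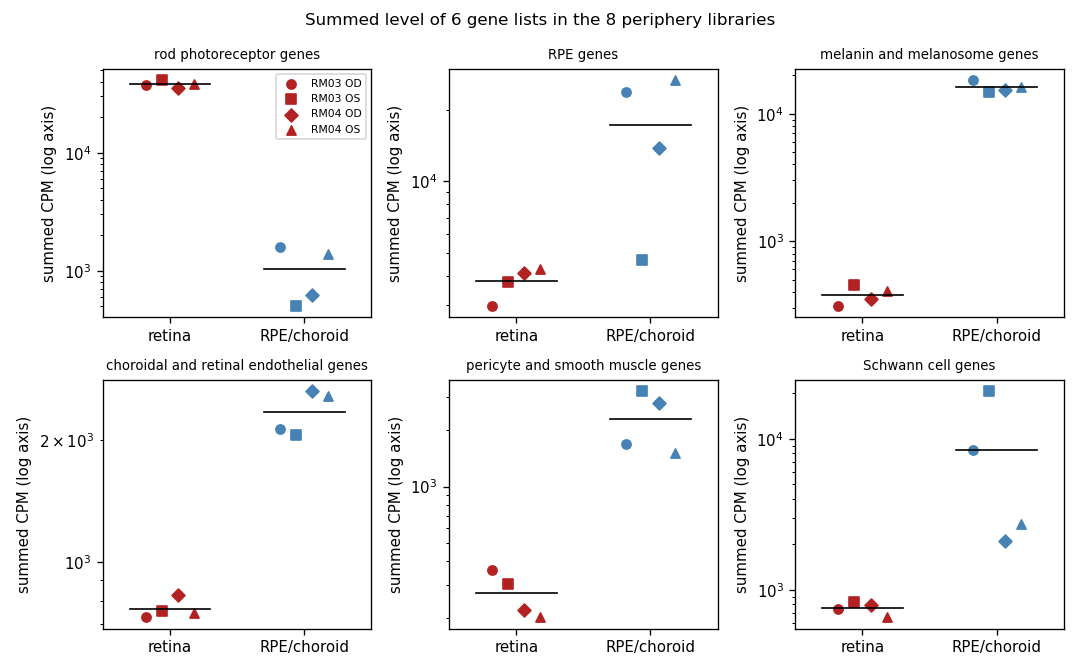
Summed CPM (log axes, each with its own range) of 6 gene lists in the 4 retina and 4 RPE/choroid libraries of the periphery, with a marker shape for each eye and a bar at the mean of 4. RPE/choroid levels vary 5.72-fold between eyes for RPE genes and 9.84-fold for Schwann cell genes, but 1.24-fold for melanin and melanosome genes.

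Rod genes were higher in retina without exception: 12 of 12 were called and all were at least 8-fold higher, with a median log2 fold change of 5.48 beside 0.04 for all genes tested. SAG, the arrestin that ends the rod response and binds photoactivated pigment, measured 11303, 12309, 12304 and 12319 CPM in retina. In RPE/choroid it measured 412, 54.2, 98.9 and 311 CPM, so the tissues were far apart in every eye, yet the RPE/choroid level spanned a wide range. PDE6A, a catalytic subunit of the rod phosphodiesterase that lowers cyclic GMP in light, measured 4617, 5596, 3282 and 3592 CPM in retina. Its levels in RPE/choroid were 126, 17.1, 22.7 and 97.3 CPM, and it had the largest fold change of the list (6.0 ± 0.76, adjusted p = 0.000202). NRL and NR2E3, the factors that set rod fate, had log2 fold changes of 5.89 ± 0.65 and 5.37 ± 0.86. In RPE/choroid, RM03 OS was the lowest library for 11 of these 12 genes and RM03 OD the highest for 10. The smallest fold change was that of GNB1 (4.24 ± 0.21), a G protein beta subunit that many other cells use too, with 486, 353, 365 and 554 CPM in RPE/choroid. Without RM03 OD, PDE6A, NRL and NR2E3 differed by 6.63, 6.61 and 6.35.

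The cone cascade behaved in the same way, with 10 of 11 genes higher in retina (median 5.28). ARR3, the cone arrestin, measured 1018, 956, 861 and 833 CPM in retina and 31.6, 4.16, 7.53 and 12.1 CPM in RPE/choroid (6.11 ± 0.64, adjusted p = 7.14e-05). GNAT2, the cone transducin, had a log2 fold change of 6.06 ± 0.60 and PDE6C, the cone phosphodiesterase, of 5.89 ± 0.59. The exception was CNGB3, the beta subunit of the cone cyclic nucleotide channel. CNGB3 measured 29.7, 41.7, 45.3 and 51.4 CPM in retina but 198, 27.04, 81.1 and 192 CPM in RPE/choroid, so that 3 of 4 eyes had the higher level in RPE/choroid and RM03 OS did not. It was called higher in RPE/choroid (-1.58 ± 0.55, adjusted p = 0.0332), but not with the eye as a replicate block (adjusted p = 0.105), nor without RM03 OD, RM04 OD or RM04 OS (adjusted p = 0.243, 0.0725 and 0.143). CNGA3, the alpha subunit of the same channel, went the other way, with 23.5, 21.7, 21.5 and 23.02 CPM in retina and 2.79, 2.28, 3.37 and 1.99 CPM in RPE/choroid (3.10 ± 0.20). The differences without RM03 OD were 6.89, 6.88, 6.50 and -0.82 for ARR3, GNAT2, PDE6C and CNGB3.

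Genes of the outer segment, the connecting cilium, the interphotoreceptor matrix and the ribbon synapse were higher in retina in 23 of 24 cases (median 5.25). RBP3, the retinoid carrier of the space between photoreceptors and RPE, measured 10549, 8479, 9951 and 11763 CPM in retina and 194, 39.5, 23.1 and 114 CPM in RPE/choroid, a 114-fold difference (6.83 ± 0.77, adjusted p = 0.000103). The matrix proteoglycans IMPG1 and IMPG2 differed by 6.36 ± 0.96 and 6.28 ± 0.79, the first of them read from the larger of 2 entries with that symbol and so uncertain. GUCA1B and GUCA1A, which activate guanylate cyclase when calcium falls, differed by 6.34 and 6.0. OTX2, a homeobox factor of photoreceptors, bipolar cells and RPE alike, was the only gene of the list not called. It measured 372, 297, 250.4 and 260.2 CPM in retina and 229.9, 24.5, 128 and 224 CPM in RPE/choroid (0.97 ± 0.59, adjusted p = 0.177), and without RM03 OS it was called at 0.59 (adjusted p = 0.0475). RBP3, IMPG1, IMPG2, GUCA1B and GUCA1A differed by 7.46, 7.20, 7.11, 7.07 and 6.77 without RM03 OD, and IMPG1 by 7.01 without RM04 OS.

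Markers of the inner retina were mostly higher in retina. Of 14 bipolar cell genes, 10 were higher in retina and 1 in RPE/choroid (median 3.74), or 12 and 1 without RM03 OS. GRM6, the glutamate receptor of ON bipolar cells, measured 90.1, 60.2, 94.4 and 97.9 CPM in retina and 6.20, 0.547, 1.05 and 1.56 CPM in RPE/choroid (5.31 ± 0.76, adjusted p = 0.000398). TRPM1, the channel that GRM6 closes and that pigment cells also express, measured 112, 103, 124 and 106 CPM in retina and 315, 331, 380.2 and 293 CPM in RPE/choroid (-1.57 ± 0.12, adjusted p = 1.07e-05), higher in RPE/choroid in every eye. Of 17 amacrine and horizontal cell genes, 13 were higher in retina and none in RPE/choroid (median 4.41), or 15 and 0 without RM03 OS, led by the GABA-synthesizing enzyme GAD1 (6.29 ± 0.51) and the calcium-binding protein CALB1 (5.91 ± 0.77). TFAP2A, a factor of amacrine cells and of neural crest, measured 26.3, 21.8, 38.7 and 31.4 CPM in retina and 48.5, 72.4, 40.9 and 29.9 CPM in RPE/choroid and was not called (-0.67 ± 0.30, adjusted p = 0.0753). Leaving out RM03 OD changed GRM6 to 6.37 and CALB1 to 6.90.

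Of the ganglion cell genes, 11 of 16 were higher in retina and 3 in RPE/choroid (median 3.42). NEFM, a neurofilament subunit of large axons, measured 282, 153, 235 and 170.4 CPM in retina and 11.1, 2.81, 1.37 and 0.751 CPM in RPE/choroid (6.20 ± 0.78, adjusted p = 0.000188). SLC17A6, the vesicular glutamate transporter of ganglion cells, differed by 5.97 ± 1.03. RM03 OS had the lowest retina level of both, and the same held for NEFL and NEFH. RBPMS, an RNA-binding protein used as a ganglion cell marker and also known from smooth muscle, measured 17.4, 7.62, 15.9 and 10.5 CPM in retina and 83.9, 95.05, 90.4 and 66.3 CPM in RPE/choroid (-2.70 ± 0.28, adjusted p = 6.62e-05). RBPMS2 and EBF1 were likewise higher in RPE/choroid, with log2 fold changes of -2.47 and -2.30. THY1, a surface protein of ganglion cells and of fibroblasts and endothelium, measured 83.9997, 37.1, 82.9 and 47.4 CPM and 37.7, 82.4, 73.5 and 57.8 CPM, and its groups overlapped (0.00 ± 0.33, adjusted p = 0.998). Without RM03 OD, NEFM differed by 6.96 and SLC17A6 by 7.64, and without RM04 OD SLC17A6 differed by 5.36.

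Of 17 Müller glia and astrocyte genes, 8 were higher in retina and 6 in RPE/choroid (median 0.80), counts not far from the background shares of 34% and 33.6%. AQP4, the water channel of glial endfeet, measured 119, 187, 276 and 251 CPM in retina and 10.9, 5.13, 5.18 and 12.8 CPM in RPE/choroid (4.56 ± 0.40, adjusted p = 2.49e-05). The glutamate transporter SLC1A3 and the potassium channel KCNJ10 were also higher in retina (3.60 and 2.68). VIM, an intermediate filament of Müller glia and of mesenchymal cells, was higher in RPE/choroid, with 1007, 1101, 1316 and 1135 CPM in retina and 2687, 2790.1, 2786 and 2462 CPM in RPE/choroid (-1.24 ± 0.13). APOE, a lipid carrier made by glia, RPE and macrophages, differed by -1.61 ± 0.20 and SPARCL1, a matrix protein of astrocytes and vessels, by -3.12 ± 0.28. GLUL, the glutamine synthetase of Müller glia, had 846, 709.6, 888 and 1258 CPM in RPE/choroid and was only modestly higher in retina (0.80 ± 0.15, from the larger of 2 entries). SOX9 was called higher in RPE/choroid (-0.59 ± 0.22, adjusted p = 0.0425) but not with the eye as a replicate block (adjusted p = 0.0805), nor without RM03 OD, RM04 OD or RM04 OS (adjusted p = 0.226, 0.0962 and 0.164).

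Genes of synaptic exocytosis and neuronal identity were higher in retina in 19 of 20 cases (median 4.0). SYP, the vesicle protein synaptophysin, measured 1878, 1858, 1320.2 and 1380.2 CPM in retina and 63.9, 19.9, 20.8 and 31.8 CPM in RPE/choroid (5.58 ± 0.40, adjusted p = 8.49e-06). CPLX3 and CPLX4, the complexins of ribbon synapses, differed by 5.52 ± 0.57 and 6.26 ± 0.71. STX3, the syntaxin of ribbon synapses, was higher in retina by 3.86 ± 0.28, whereas STX1A, at 8.47, 6.002, 8.71 and 6.47 CPM in retina and 9.79, 11.8, 13.98 and 12.95 CPM in RPE/choroid, was higher in RPE/choroid (-0.70 ± 0.19, adjusted p = 0.01). Without RM03 OS or RM04 OS, STX1A was not called (adjusted p = 0.0551 and 0.0598). CPLX3 and CPLX4 differed by 6.15 and 6.88 without RM03 OD.

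**Figure D3:**
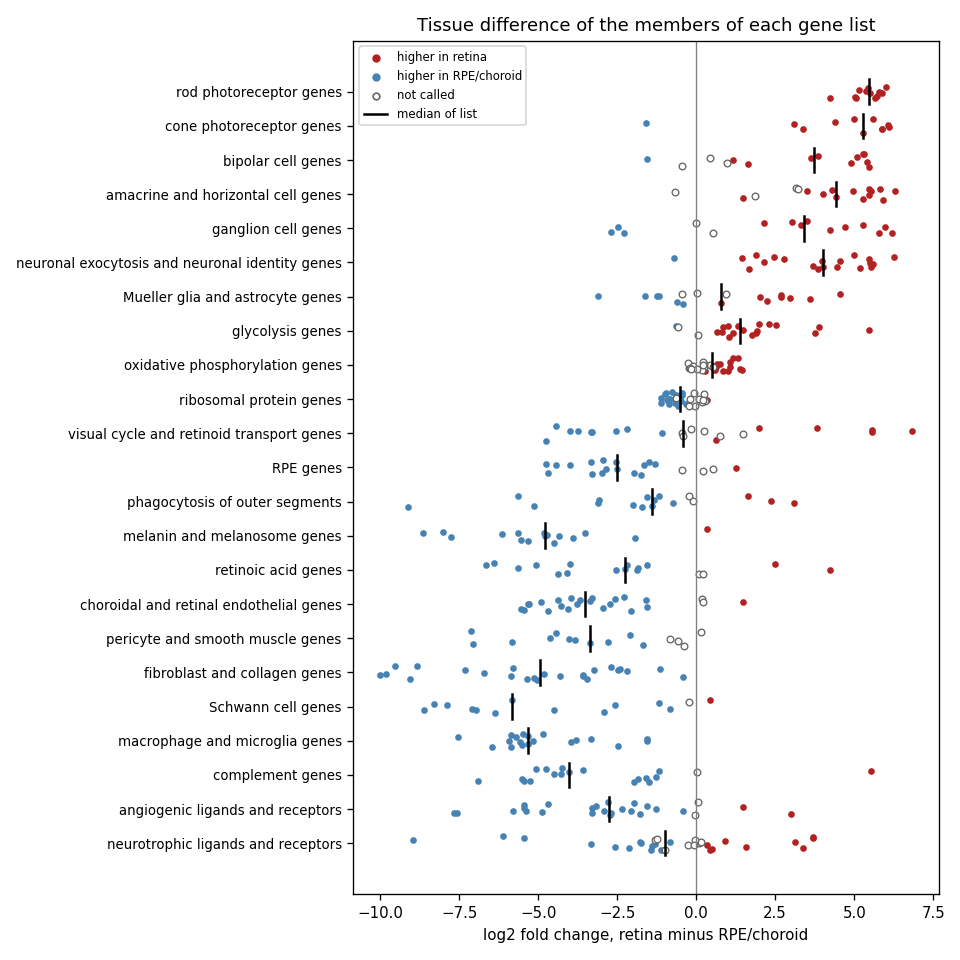
Log2 fold change, retina minus RPE/choroid, of the tested members of 23 gene lists; red, called higher in retina; blue, called higher in RPE/choroid; open, not called; black bar, median of the list. A member with no count in a tissue is left out of the points. Rod and cone lists have medians above 5 and no point passes 7, fibroblast, melanin and Schwann cell lists reach beyond -8, and visual cycle genes spread over both sides.

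RPE genes were higher in RPE/choroid in 16 of 20 cases and in retina in 1 (median -2.52), or 17 and 1 without RM03 OS. RPE65, the isomerase of the visual cycle, measured 122, 229, 117 and 161 CPM in retina and 4578, 481, 2683 and 6409 CPM in RPE/choroid. Even the lowest RPE/choroid library, RM03 OS, exceeded the highest retina library (-4.44 ± 0.75, adjusted p = 0.00101, and -5.09 without that eye). BEST1, a chloride channel of the basal membrane, measured 39.7, 76.2, 63.04 and 114 CPM in retina and 703, 172, 517 and 718 CPM in RPE/choroid (-2.86 ± 0.46, adjusted p = 0.000776). CDH1, an epithelial cadherin, varied little between eyes, with 4.67, 5.90, 4.43 and 5.23 CPM in retina and 128, 119.7, 148 and 127 CPM in RPE/choroid (-4.69 ± 0.14, adjusted p = 2.42e-07), RM03 OS included. SERPINF1, which encodes the pigment epithelium-derived factor, differed by -1.96 ± 0.19. FRZB, a secreted Wnt antagonist, was the exception, with 577, 673, 783 and 827 CPM in retina and 288, 249, 351 and 315 CPM in RPE/choroid (1.25 ± 0.11, adjusted p = 2.61e-05). SLC26A4 was near 1 to 2 CPM in all 8 libraries and was not called (0.54 ± 0.30, adjusted p = 0.15). TRPM3, ITGB8 and SLC39A12 had overlapping groups, and with the eye as a replicate block they were not called (adjusted p = 0.066, 0.0817 and 0.121), which left 13 of 20 RPE genes higher in RPE/choroid. They also missed the threshold without RM03 OD (adjusted p = 0.151, 0.193 and 0.283) and without RM04 OS (adjusted p = 0.102, 0.146 and 0.147), and TRPM3 and SLC39A12 without RM04 OD (adjusted p = 0.0699 and 0.0701). Leaving out RM03 OD reduced the difference of BEST1 to -2.27 and that of SLC39A12 from -1.75 to -0.97.

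Of 21 genes of the visual cycle, 6 were higher in retina, 9 in RPE/choroid and 6 were not called (median -0.43). These counts are close to the background shares of 34% and 33.6%, and without RM03 OS they were 6 and 10. ABCA4, which moves retinal out of the disc, measured 3206, 3207, 2308 and 2612 CPM in retina and 303, 95.98, 139 and 252 CPM in RPE/choroid (3.83 ± 0.39, adjusted p = 5.89e-05). RDH8 and RDH12, which reduce retinal to retinol in photoreceptors, differed by 5.55 ± 0.54 and 5.55 ± 0.86. LRAT, which esterifies retinol, was higher in RPE/choroid, with 17.5, 36.4, 27.005 and 38.2 CPM in retina and 1255, 137, 534 and 1264 CPM in RPE/choroid (-4.74 ± 0.71, adjusted p = 0.000525). RGR, an opsin of RPE and Müller glia, differed by -3.32 ± 0.60, TTR, the carrier of plasma retinol-binding protein, by -3.31 ± 0.60, and STRA6, its membrane receptor, by -2.54 ± 0.56. BCO1, which cleaves beta-carotene to retinal, was higher in RPE/choroid (-3.74 ± 0.68) while BCO2, which cleaves carotenoids off centre, was higher in retina (1.98 ± 0.52, but adjusted p = 0.0508 without RM03 OD). With RM03 OD left out, RDH12 differed by 6.51, LRAT by -3.90, RGR by -2.49, TTR by -2.51 and STRA6 by -1.72. BCO1 differed by -4.34 without RM03 OS.

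RLBP1, the retinaldehyde carrier of RPE and Müller glia, measured 1296, 1376, 1609.9 and 1449 CPM in retina and 2627, 392, 1754 and 3369.98 CPM in RPE/choroid, and the groups overlapped through RM03 OS (-0.46 ± 0.51, adjusted p = 0.45). Without RM03 OS it was called higher in RPE/choroid (-0.83, adjusted p = 0.03). RDH11, a retinol dehydrogenase, measured 175, 182, 160.2 and 148 CPM and 254, 64.7, 113 and 319 CPM (-0.16 ± 0.45, adjusted p = 0.774). RDH10, another, measured 116, 139, 180.2 and 129 CPM and 107, 30.9, 69.7 and 131 CPM (0.76 ± 0.37, adjusted p = 0.106). For RDH11 and RDH10 alike, RM03 OS was the lowest of the 4 RPE/choroid libraries.

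**Figure D4:**
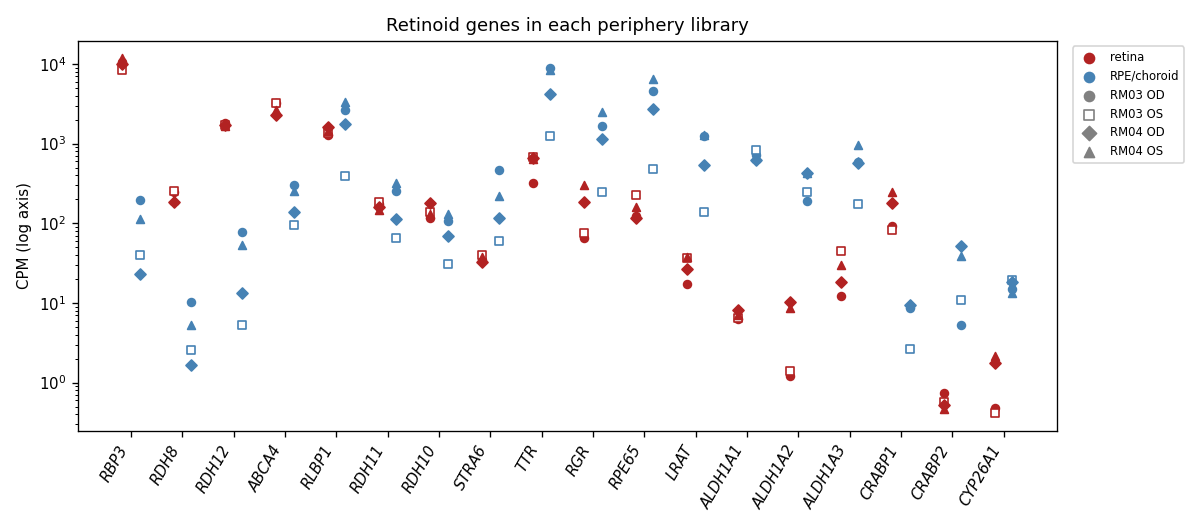
CPM (log axis) of 18 genes of the visual cycle and of retinoic acid in each periphery library; red, retina; blue, RPE/choroid; a marker shape for each eye, with RM03 OS open. RBP3, RDH8, RDH12 and ABCA4 are above in retina, RLBP1, RDH11 and RDH10 overlap, and the open RPE/choroid squares lie lowest for RPE65, LRAT, RGR and TTR but not for ALDH1A1.

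Retinoic acid, the other product of retinol, regulates growth and gene expression through nuclear receptors. Of 17 genes of its synthesis, breakdown and response, 13 were higher in RPE/choroid and 2 in retina (median -2.25). The synthesizing enzyme ALDH1A1 measured 6.22, 6.38, 8.25 and 7.14 CPM in retina and 719.9, 836, 616 and 655 CPM in RPE/choroid, a 101-fold difference (-6.66 ± 0.18, adjusted p = 2.11e-07). ALDH1A2 measured 1.21, 1.40, 10.3 and 8.64 CPM in retina and 188, 244, 425 and 426 CPM in RPE/choroid, higher in both tissues of RM04 than of RM03 (-6.39 ± 0.44). ALDH1A3 differed by -4.37 ± 0.62. CYP26A1, which degrades retinoic acid, was also higher in RPE/choroid, with 0.478, 0.411, 1.74 and 2.17 CPM in retina and 15.04, 19.5, 18.5 and 13.4 CPM in RPE/choroid (-4.09 ± 0.50, adjusted p = 0.000164). Of the carriers, CRABP1 was higher in retina (93.4, 82.1, 182 and 249.8 against 8.58, 2.64, 9.28 and 9.78 CPM; 4.24 ± 0.37) and CRABP2 was higher in RPE/choroid (-5.06 ± 0.68). Among the receptors, RARB, RARG and RXRA were higher in RPE/choroid (-1.86, -1.87 and -1.54) and RXRG, known from cones, was higher in retina (2.51 ± 0.56). For RARA and RXRB the 95% interval of the log2 fold change lay wholly within 0.5 of 0, as it did for 1507 of all genes tested (9.60%). Without RM03 OS, ALDH1A3 differed by -5.19 and RXRG by 3.38. CRABP2 differed by -5.80 without RM03 OD and by -4.48 without RM04 OD.

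Genes of the uptake and breakdown of outer segments were higher in RPE/choroid in 12 of 17 cases and in retina in 3 (median -1.40). The receptor MERTK, which triggers engulfment, measured 16.5, 18.5, 26.7 and 27.3 CPM in retina and 85.8, 71.3, 51.5 and 52.6 CPM in RPE/choroid (-1.55 ± 0.25, adjusted p = 0.000692). Its bridging ligands PROS1 and GAS6 differed by -3.10 ± 0.15 and -0.73 ± 0.13. MFGE8, the ligand of the integrin that binds outer segments, was higher in retina, with 571, 558, 475 and 534 CPM in retina and 93.96, 138, 96.6 and 86.04 CPM in RPE/choroid (2.37 ± 0.15, adjusted p = 4.11e-06), whereas the integrin subunit ITGB5 was higher in RPE/choroid (-1.40 ± 0.11) and its partner ITGAV was not called (-0.22 ± 0.27, adjusted p = 0.481). The lysosomal protease CTSD differed by -3.06 ± 0.38. CD36, a scavenger receptor of RPE, macrophages and endothelium, had the largest difference of the list, with 0.388, 0.213, 0.209 and 0.0992 CPM in retina and 151, 90.6, 125 and 129.96 CPM in RPE/choroid (-9.11 ± 0.38, adjusted p = 7.21e-07).

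Melanin and melanosome genes were higher in RPE/choroid in 15 of 16 cases (median -4.80). PMEL, which builds the fibrils of the melanosome, measured 12.7, 37.8, 8.89 and 11.8 CPM in retina and 8065, 6547, 5619 and 5899.5 CPM in RPE/choroid, a 401-fold difference (-8.65 ± 0.49, adjusted p = 2.67e-06). The highest retina level of PMEL was that of RM03 OS. TYR, the rate-limiting enzyme of melanin synthesis, differed by -8.01 ± 0.43 and MITF, the master factor of pigment cells, by -4.81 ± 0.15. DCT, an enzyme of eumelanin synthesis, varied most between eyes, with 24.2, 9.76, 54.7 and 50.6 CPM in RPE/choroid. MYO5A, a motor that moves melanosomes and that neurons also use, was the exception at 0.34 ± 0.10 (adjusted p = 0.0203), and it was not called without RM03 OD, RM03 OS or RM04 OD (adjusted p = 0.0519, 0.0644 and 0.0948).

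Of 23 carriers of lactate, glucose and ions, 6 were higher in retina, 8 in RPE/choroid and 9 were not called (median -0.28), shares near or below the background of 34% and 33.6%. The glucose transporter SLC2A1 was present in both, with 382, 361, 378 and 407 CPM and 722, 347, 326 and 593 CPM (-0.38 ± 0.26, adjusted p = 0.236). The same was true of SLC16A1, a lactate transporter, with 194, 199.8, 146 and 188 CPM and 126, 17.5, 46.4 and 151 CPM (1.11 ± 0.59, adjusted p = 0.13), whose lowest value was in the RPE/choroid of RM03 OS. CA4, a carbonic anhydrase of the choriocapillaris, was higher in RPE/choroid (-4.91 ± 0.27, from the larger of 2 entries), and so was the chloride channel CFTR (-5.91 ± 0.72, and -5.27 without RM03 OS).

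Endothelial genes were higher in RPE/choroid in 21 of 24 cases (median -3.50). PLVAP, which forms the diaphragms of fenestrated vessels, measured 4.51, 4.87, 3.51 and 3.63 CPM in retina and 199, 135, 209.5 and 229 CPM in RPE/choroid (-5.55 ± 0.23, adjusted p = 6.64e-07). CDH5, PECAM1 and VWF, markers of endothelium in general, differed by -5.30 ± 0.22, -4.07 ± 0.18 and -3.97 ± 0.22. MFSD2A, a lipid transporter of barrier vessels, was also higher in RPE/choroid, with 7.79, 7.54, 7.91 and 9.10 CPM in retina and 41.5, 9.29, 16.9 and 30.3 CPM in RPE/choroid (-1.60 ± 0.43, adjusted p = 0.0103, and 0.0586 without RM04 OS). KDR, the main receptor for VEGFA, was the only endothelial gene higher in retina, with 488, 559, 618 and 528 CPM in retina and 223, 149.99, 185 and 226 CPM in RPE/choroid (1.49 ± 0.15, adjusted p = 6.65e-05). Neural progenitors of the retina are also known to express KDR.

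Pericyte and smooth muscle genes were higher in RPE/choroid in 11 of 15 cases and were not called in 4 (median -3.36). RGS5, a pericyte marker, measured 28.3, 21.4, 21.6 and 19.7 CPM in retina and 282, 556, 656 and 499 CPM in RPE/choroid (-4.44 ± 0.29, adjusted p = 5.59e-06). MYH11, the myosin of smooth muscle, measured 5.91, 2.88, 5.9995 and 5.91 CPM in retina and 191, 553, 379 and 71.1 CPM in RPE/choroid (-5.82 ± 0.70, adjusted p = 0.000151). The RPE/choroid levels of contractile genes were highest in RM03 OS and RM04 OD and lowest in RM04 OS, an order seen for MYH11, ACTA2, CNN1 and ACTG2 alike. PDGFRB, the receptor that keeps pericytes on vessels, was steady, with 208, 212, 181 and 156 CPM in RPE/choroid (-2.79 ± 0.10). KCNJ8 and ABCC9, the channel subunits of pericytes, were low in both tissues and were not called (-0.57 and -0.83). MYH11 differed by -5.16 without RM03 OS.

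All 24 fibroblast and collagen genes were higher in RPE/choroid (median -4.93), or 23 without RM03 OS (median -4.46), and 18 of them by at least 8-fold. DCN, a small proteoglycan that binds collagen fibrils, measured 4.43, 6.82, 7.71 and 5.59 CPM in retina and 2939, 6749, 6001 and 6337 CPM in RPE/choroid, an 894-fold difference (-9.80 ± 0.40, adjusted p = 6.34e-07). The fibrillar collagens COL1A1, COL1A2 and COL3A1 differed by -8.82 ± 0.30, -9.05 ± 0.20 and -9.51 ± 0.30. Smaller differences were found for the basement membrane collagens COL4A1 (-3.57 ± 0.20) and COL4A2 (-2.42 ± 0.36) and for COL18A1 (-2.20 ± 0.22). PDGFRA, known from fibroblasts and from retinal astrocytes, had the smallest, with 95.6, 88.3, 112 and 108 CPM in retina and 105, 127, 162 and 148 CPM in RPE/choroid (-0.42 ± 0.10, adjusted p = 0.00625, and 0.0521 without RM04 OD). COL8A1, a collagen of Bruch's membrane, had its lowest RPE/choroid level in RM03 OS (105, 18.8, 44.0001 and 94.3 CPM; -2.48 ± 0.50), unlike COL8A2 (346, 326, 319.8 and 304 CPM; -5.79 ± 0.30). Among matrix proteases and their inhibitors, 16 of 20 were higher in RPE/choroid and none in retina (median -3.01), including MMP2 (-5.09 ± 0.29), TIMP1 (-4.43 ± 0.16) and TIMP3, an inhibitor held in Bruch's membrane (241, 409.6, 336 and 402 against 2595, 1849, 2013 and 3459 CPM; -2.83 ± 0.26).

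Schwann cell genes were higher in RPE/choroid in 13 of 15 cases (median -5.84), and their summed level in RPE/choroid differed more between eyes than that of any other list. PRX, a protein of peripheral myelin, measured 3.39, 3.24, 3.79 and 4.19 CPM in retina and 805, 2154, 101 and 185 CPM in RPE/choroid (-6.98 ± 0.95, adjusted p = 0.000305). In RPE/choroid both eyes of RM03 were above both eyes of RM04, and RM03 OS was the highest. MBP, another myelin protein, followed the same order in RPE/choroid, with 1082, 2556, 153 and 295 CPM. CDH19, a cadherin of Schwann cells and their precursors that is not part of myelin, was far steadier, with 0.220, 0.335, 0.0557 and 0.298 CPM in retina and 103, 137, 65.5 and 61.9 CPM in RPE/choroid (-8.61 ± 0.39, adjusted p = 1.03e-06). Without RM03 OS, 13 of 15 genes were again higher in RPE/choroid, and the median was -5.10. The difference of PRX moved with the eyes used: it was -6.36, -6.01, -7.79 and -7.62 with RM03 OD, RM03 OS, RM04 OD and RM04 OS left out in turn.

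Immune cells were represented mainly in RPE/choroid. All 19 macrophage and microglia genes were higher there (median -5.33), and so were 11 of 16 genes of mast cells, lymphocytes and plasma cells (median -4.86), with none higher in retina. CD68, a lysosomal protein of macrophages, measured 1.81, 2.32, 1.95 and 1.96 CPM in retina and 468, 275, 349 and 385 CPM in RPE/choroid (-7.52 ± 0.23, adjusted p = 2.42e-07). The smallest differences were those of P2RY12 and CX3CR1, receptors known from microglia, at -1.54 ± 0.37 and -1.55 ± 0.32. CD74, the chaperone of MHC class II, measured 70.1, 43.5, 165 and 121 CPM in retina and 3352, 4426, 3254 and 3498 CPM in RPE/choroid (-5.33 ± 0.41). Of 4 red blood cell genes tested, HBB and HBA1 were higher in RPE/choroid (-3.65 ± 0.21 and -3.93 ± 0.30), with HBB at 27.9, 22.6, 20.9 and 19.7 CPM in retina and 407, 341, 163 and 273 CPM in RPE/choroid.

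Complement was weighted to RPE/choroid as well, with 17 of 19 genes higher there and 1 in retina (median -4.02). C1S, a protease that starts the classical pathway, measured 4.41, 4.65, 3.41 and 3.41 CPM in retina and 383, 556, 469.6 and 461 CPM in RPE/choroid (-6.89 ± 0.19, adjusted p = 2e-07). C3, the component on which all pathways converge, measured 29.7, 26.04, 41.7 and 35.6 CPM and 406, 366, 648 and 815 CPM (-4.02 ± 0.16). Inhibitors on cell surfaces differed less: CD46, CD55 and CD59 had log2 fold changes of -1.18 ± 0.13, -1.28 ± 0.12 and -1.84 ± 0.13. VTN, vitronectin, which blocks the terminal complex, was the gene higher in retina, with 329.5, 323, 703 and 662 CPM in retina and 15.4, 2.38, 3.57 and 19.6 CPM in RPE/choroid (5.54 ± 0.75, adjusted p = 0.000301). CLU, clusterin, another inhibitor of that complex, was alike in both tissues, with 912, 873, 1226 and 977 CPM and 914, 575, 1166 and 1346 CPM (0.04 ± 0.19, adjusted p = 0.875, with the 95% interval within 0.5 of 0). VTN differed by 6.27 without RM03 OD.

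Ligands and receptors of vessel growth lay mostly on the RPE/choroid side (22 of 26, with 2 higher in retina; median -2.75). VEGFA, the main growth factor of endothelium, measured 119, 156, 137 and 151 CPM in retina and 139, 49.4, 189 and 195 CPM in RPE/choroid (0.07 ± 0.33, adjusted p = 0.869). RM03 OS had the lowest RPE/choroid level of VEGFA, and without that eye the gene was called higher in RPE/choroid (-0.35, adjusted p = 0.0274). Its relatives VEGFB, VEGFC and PGF were higher in RPE/choroid (-1.27, -2.71 and -3.31), as were the receptors FLT1 and FLT4 (-1.57 and -5.45) and the coreceptors NRP1 and NRP2 (-4.89 ± 0.18 and -5.80 ± 0.12). ANGPT1, the ligand that stabilizes vessels, measured 1.19, 1.04, 1.53 and 1.12 CPM in retina and 232, 265, 239.6 and 240.01 CPM in RPE/choroid (-7.65 ± 0.17, adjusted p = 1.43e-07), and its receptor TEK differed by -3.28 ± 0.17. NDP, norrin, which Müller glia secrete to build the retinal vessels, was higher in retina, with 17.7, 28.3, 21.9 and 20.7 CPM in retina and 4.09, 4.98, 1.17 and 2.17 CPM in RPE/choroid (3.0 ± 0.36, adjusted p = 0.000147). The components of the norrin receptor, FZD4, LRP5 and TSPAN12, were higher in RPE/choroid (-2.35 ± 0.26, -2.91 ± 0.12 and -5.46 ± 0.28), so ligand and receptor lay on opposite sides.

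Of 31 neurotrophic ligands and receptors, 9 were higher in retina and 14 in RPE/choroid (median -0.98), or 7 and 12 without RM03 OS (median -0.59). The background shares were 34% and 33.6%, so the count in retina did not exceed its share. In retina the ligands NRG1, FGF9 and BDNF were higher (3.70 ± 0.49, 3.70 ± 0.95 and 3.13 ± 0.91), although FGF9 was not called without RM04 OS (adjusted p = 0.0636) nor BDNF without RM04 OD or RM04 OS (adjusted p = 0.0693 and 0.0919). IGF2, a growth factor of mesenchyme, had the largest difference, with 1.12, 0.975, 0.947 and 1.48 CPM in retina and 784, 666, 457 and 439 CPM in RPE/choroid (-8.97 ± 0.30, adjusted p = 3e-07). IGF1 was not called, with 9.44, 7.63, 8.16 and 8.65 CPM and 10.5, 6.65, 7.16 and 10.5 CPM (-0.04 ± 0.21, adjusted p = 0.88). NGFR, a receptor of neurotrophins, was higher in retina (0.45 ± 0.14), but it was not called without RM03 OS, RM04 OD or RM04 OS (adjusted p = 0.0916, 0.0684 and 0.0991). The count of 9 in retina fell to 5 without RM04 OD and to 4 without RM04 OS. The difference of FGF9 was 4.34, 4.54 and 2.80 without RM03 OD, RM03 OS and RM04 OD, and that of BDNF was 4.50 and 2.44 without RM03 OS and RM04 OD.

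Glycolysis genes were higher in retina in 17 of 20 cases and in RPE/choroid in 1 (median 1.39), although 9 of the 20 symbols have several entries and are uncertain. HK2, the hexokinase of highly glycolytic cells, measured 487, 597, 339.7 and 403 CPM in retina and 34.9, 31.3, 24.8 and 30.7 CPM in RPE/choroid (3.89 ± 0.15, adjusted p = 4.97e-07). The neuronal isozymes ENO2 and ALDOC differed by 5.46 ± 0.52 and 3.75 ± 0.43. PDK2, which restrains entry of pyruvate into mitochondria, was the gene higher in RPE/choroid (-0.64 ± 0.14). Among 27 oxidative phosphorylation genes, 14 were higher in retina, none in RPE/choroid and 13 were not called (median 0.49), with CYC1 at 1.16 ± 0.11 and UQCRC1 at 1.08 ± 0.14 among those called, and SDHB, of complex II, at 0.19 ± 0.11 (adjusted p = 0.149). Of these symbols, 16 have several entries and are uncertain.

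Ribosomal protein genes were higher in RPE/choroid in 21 of 32 cases and in retina in 1, RPL3 (median -0.51, with RPL3 not called when any single eye was left out, adjusted p from 0.06 to 0.102, nor with the eye as a replicate block, adjusted p = 0.0522), with 29 of the 32 symbols carried by several entries and therefore uncertain. Over all the alternatives tried, the median of this list stayed between -0.55 and -0.47. Most genes often used as references differed between these tissues, as most genes tested did. Of 14, 6 were higher in retina and 5 in RPE/choroid (median 0.19), counts not far from the background shares of 34% and 33.6%. For 3 of the 14 the interval of the log2 fold change lay within 0.5 of 0, as it did for 9.60% of all genes tested. Of the 14 symbols, 4 have several entries and are uncertain. B2M, the light chain of MHC class I, measured 68.9, 61.4, 82.98 and 60.2 CPM in retina and 2232, 2778, 2750.5 and 2641 CPM in RPE/choroid (-5.25 ± 0.17, adjusted p = 2.88e-07). HPRT1, a purine salvage enzyme, was higher in retina (67.7, 79.8, 67.6 and 79.5 against 21.3, 18.3, 17.3 and 16.9 CPM; 2.0 ± 0.11). The genes alike in both tissues with the highest mean CPM included UBB, EIF4G2, CLU and RPLP0, of which UBB and RPLP0 have several entries. EIF4G2, a translation factor, measured 1129.6, 1285, 1009.7 and 966 CPM and 996, 921, 933 and 1014 CPM (0.18 ± 0.12). A missing call did not mean a like level: of 5082 genes not called, the interval lay within 0.5 of 0 for 1416.

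Of 22 genes of macular dystrophy and degeneration, 9 were higher in retina and 12 in RPE/choroid (median -1.06). PROM1, which shapes the discs of outer segments, measured 993, 1077, 761 and 873 CPM in retina and 46.5, 21.9, 25.7 and 33.97 CPM in RPE/choroid (4.85 ± 0.27), and ELOVL4, which makes very long fatty acids, differed by 5.25 ± 0.55. EFEMP1, a matrix protein beneath the RPE, measured 70.6, 107, 118 and 122 CPM in retina and 669, 703, 709 and 817 CPM in RPE/choroid (-2.81 ± 0.16, adjusted p = 2.87e-06). HTRA1, a secreted protease, was higher in RPE/choroid by a smaller margin (-1.04 ± 0.15), and LIPC, a lipase of lipoproteins, by a larger one (-7.33 ± 0.45).

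Among transcription factors of eye regions, 7 of 31 were higher in retina and 17 in RPE/choroid (median -0.94), or 9 and 17 of 32 without RM03 OS. RAX and PAX6, factors of the early eye field, differed by 5.15 ± 0.62 and 4.02 ± 0.38, and RAX by 5.77 without RM03 OD. FOXC1, a factor of periocular mesenchyme, was higher in RPE/choroid, with 1.18, 1.37, 1.10 and 0.694 CPM in retina and 55.5, 72.4, 65.1 and 58.2 CPM in RPE/choroid (-5.87 ± 0.22, adjusted p = 4.46e-07). VAX2, a ventral factor of the optic cup, was higher in retina (2.96 ± 0.51). LHX2 and SIX3 were not called (0.95 ± 0.47 and 0.49 ± 0.33), and LHX2 was called without RM03 OS (0.51, adjusted p = 0.0206). Among 17 genes of ciliary body, iris and sclera, 6 were higher in retina and 5 in RPE/choroid (median 0.47). These counts are close to the background shares of 34% and 33.6%. Among 14 immediate early and dissociation genes, 2 were higher in retina and 8 in RPE/choroid (median -0.85).

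The genes with the largest fold changes among those with at least 100 CPM in the higher tissue were in part named above. Others reported here in retina were CLUL1, a clusterin-like protein of photoreceptors (6.55 ± 0.70), and GUCA1C, a cone guanylate cyclase activator (6.02 ± 0.71), which differed by 7.16 and 6.86 without RM03 OD. In RPE/choroid the list held DCN together with the stromal genes OGN (-9.72 ± 0.24), PI16 (-9.76 ± 0.58) and CPXM1 (-9.87 ± 0.34). SCGB3A2, a secretoglobin best known from the airway, measured 0.259, 0.289, 0.292 and 0.384 CPM in retina and 286, 354, 289.8 and 325 CPM in RPE/choroid (-9.99 ± 0.19, adjusted p = 1.43e-07), with little spread between eyes. CHIT1, a chitinase of macrophages, measured 1.10, 1.36, 0.863 and 0.793 CPM in retina and 1035, 375, 1241 and 1412 CPM in RPE/choroid (-9.89 ± 0.55). CAPN6, a calpain without protease activity, measured 463, 1063, 909 and 921 CPM in RPE/choroid (-9.58 ± 0.36). The list also held 4 immunoglobulin genes, a family with near-identical copies, and how reads were shared between copies was not tested. Their RPE/choroid levels varied widely between eyes. For IGHG4 these were 274, 1643, 656 and 1549 CPM.

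The tissue difference was also compared between the animals, with 2 eyes each. Only MAOB, the monoamine oxidase B gene, was called by edgeR (1 of 15701, or 0.00637%), whereas 1802 genes had an unadjusted p under 0.05 and DESeq2 called 554. MAOB measured 50.6, 49.1, 12.6 and 11.7 CPM in retina and 39.01, 41.7, 53.1 and 58.9 CPM in RPE/choroid. The retina levels of RM03 were above those of RM04 and the RPE/choroid levels below them, so that the tissue difference was lower in RM04 (RM04 minus RM03, -2.51 ± 0.18 on the log2 scale, adjusted p = 0.0373). With the eye as a replicate block no gene was called. GFAP, the intermediate filament of astrocytes and reactive Müller glia, missed the threshold (3.20 ± 0.39, adjusted p = 0.0734), with 43.1, 26.1, 32.3 and 23.7 CPM in retina and 49.2, 57.2, 4.49 and 4.91 CPM in RPE/choroid: both RPE/choroid libraries of RM03 were above both of RM04. FASLG, a death receptor ligand, also missed it (3.18 ± 0.37, adjusted p = 0.0734), with 0.982, 1.17, 15.5 and 15.2 CPM in retina and 1.99, 2.43, 3.36 and 3.58 CPM in RPE/choroid. The tissue difference of GFAP over both animals was not called (0.96 ± 0.67, adjusted p = 0.237). Without RM03 OS, GFAP was called higher in retina (1.69, adjusted p = 0.0459).

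Finally, the tissue difference at the periphery was set against the mean of the same difference at the other 3 locations (fovea/macula, perimacula and nasal), in a fit of all 32 libraries. Of 16382 genes tested, the difference was above that of the other locations for 3248 (19.8%) and below it for 2548 (15.6%). The difference was again retina minus RPE/choroid, so a gene higher in RPE/choroid whose gap narrowed at the periphery also counted as above. The periphery libraries ran on a flow cell of their own, so location and flow cell cannot be told apart, although each tissue difference lay within shared flow cells. The lowest adjusted p belonged to SORBS2, an adaptor of the actin cytoskeleton. In retina SORBS2 measured 70.1 ± 7.93, 135 ± 15.3, 169 ± 6.44 and 198 ± 7.34 CPM (mean ± SD, n = 4) at fovea/macula, perimacula, nasal location and periphery. In RPE/choroid it measured 429 ± 32.5, 251 ± 32.5, 333 ± 47.8 and 99.9 ± 16.8 CPM, so the tissue that held more changed between the other locations and the periphery (difference 2.48 ± 0.12, adjusted p = 1.85e-13). MSN, moesin, also had a higher difference at the periphery (1.44 ± 0.10), whereas YWHAG, a 14-3-3 protein (-1.55 ± 0.11), and KNDC1, a dendrite regulator (-1.87 ± 0.15), had lower ones. YWHAG measured 696 ± 54.6, 365 ± 52.7, 290.5 ± 13.9 and 182 ± 17.2 CPM in retina and 134 ± 10.7, 131 ± 15.7, 127 ± 13.9 and 166 ± 19.2 CPM in RPE/choroid.

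Of 21 RPE genes tested in this fit, 15 had a tissue difference above that of the other locations and none below it, and for the visual cycle the counts were 12 and 0 of 21. Such one-sided counts were not particular to RPE genes. Ribosomal protein genes had 27 above and 0 below of 32, and endothelial genes 13 and 0 of 24. Genes of neuronal exocytosis and identity went the other way, with 0 above and 10 below of 20. Over all genes tested the shares were 19.8% above and 15.6% below. The summed level of the 6 RPE markers in retina was 169 ± 39.6, 201 ± 51.1, 346 ± 83.7 and 953 ± 281 CPM over the 4 locations, while that in RPE/choroid was 12655 ± 4764, 7663 ± 3590.00, 13451 ± 2675 and 11387 ± 7307 CPM, with RM03 OS at 2281 CPM at the periphery. Pericyte and smooth muscle genes (8 above and 0 below of 15) summed in RPE/choroid to 9468 ± 1823, 5817 ± 699, 6394 ± 1371 and 2238 ± 855 CPM. Ganglion cell genes (0 above and 12 below of 17) summed in retina to 12686 ± 772, 5361 ± 1649, 2823 ± 172 and 1145 ± 364 CPM. Rod genes summed in retina to 7983 ± 511, 22912 ± 3809, 26348 ± 1632 and 36637 ± 2129.9 CPM and in RPE/choroid to 696 ± 395, 479.7 ± 57.7, 550.3 ± 82.5 and 989 ± 511 CPM, and 1 of the 12 was called above and none below. Schwann cell genes (2 above and 7 below of 15) were uneven between RPE/choroid libraries at the perimacula and the periphery. Their sums there were 13643, 1357, 1408 and 4128 CPM at the perimacula and 8057, 20550.2, 2015 and 2569.6 CPM at the periphery. At the fovea/macula and the nasal location no library exceeded 1623 CPM. COL2A1, a collagen of vitreous and cartilage, measured 1.18 ± 0.414, 1.94 ± 0.733, 2.99 ± 0.634 and 149 ± 52.2 CPM in retina and 0.0319 ± 0.0293, 0.129 ± 0.0859, 0.271 ± 0.349 and 14.9 ± 9.86 CPM in RPE/choroid over the 4 locations, a higher level at the periphery in both tissues, and its tissue difference was not called as changed (-0.77 ± 0.67, adjusted p = 0.4).

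**Figure D5:**
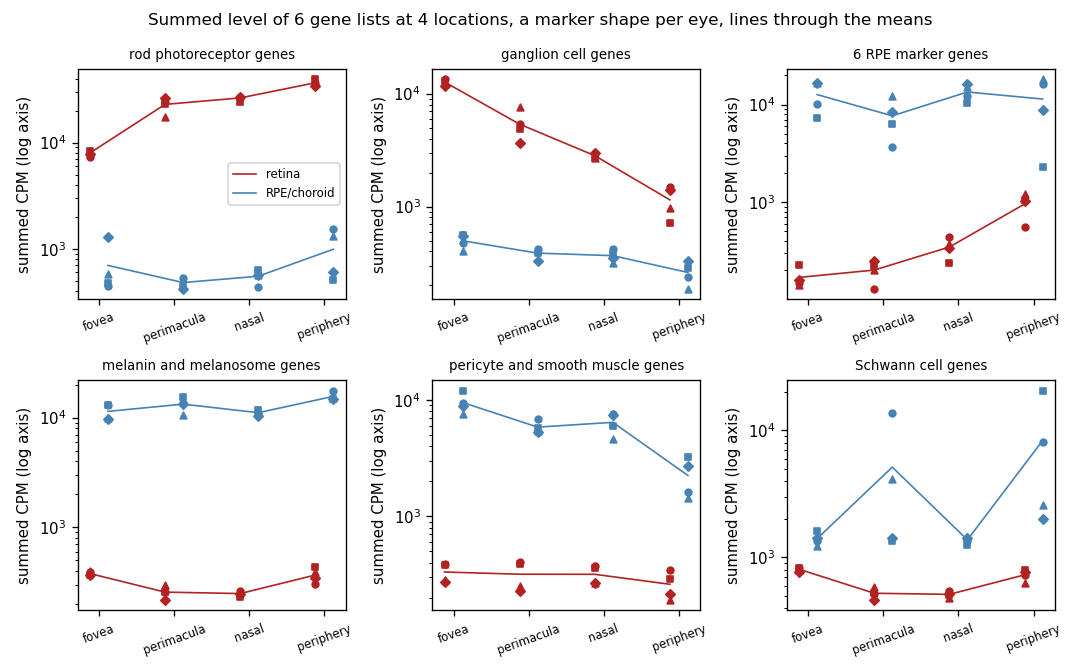
Summed CPM (log axes, each with its own range) of 6 gene lists at 4 locations in retina (red) and RPE/choroid (blue); a marker shape for each eye (circle RM03 OD, square RM03 OS, diamond RM04 OD, triangle RM04 OS) and lines through the means of 4. Rod gene sums in retina increase from fovea/macula to periphery and ganglion cell sums decrease. Schwann cell sums in RPE/choroid differ widely between eyes at the perimacula and the periphery, with a library of RM03 the highest at each.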

How the data were processed

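Total RNA was extracted from 2 mm punches, and poly-A-selected libraries were sequenced from paired ends. The authors quantified each lane with Salmon 0.13 (per the labels) against Mmul_8.0.1 transcripts and used tximport to obtain length-scaled values per gene. The deposited column is headed TPM but holds estimated counts per gene, since its values add up to the size of each lane. These expected counts, as deposited by the authors, were summed over the lanes of each library and rounded, and 10 repeated entries of 19432 were dropped. Depth and precision are given with the data: the smallest of the 8 libraries held 62751376 counts, and the number of eyes limits the precision more than counting error.

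Genes were tested with edgeR 4.0.16 in R 4.3.3 (TMM, filterByExpr with a minimum count of 10, quasi-likelihood fit, Benjamini-Hochberg adjustment over all genes tested, threshold 0.05), with the tissue as the term and the animal as covariate. Standard errors were taken from the fold change and its F value. The interaction of tissue and animal was tested in the 8 libraries, and that of tissue and location in all 32. A gene was called alike where the 95% interval of its log2 fold change lay within 0.5 of 0. The scripts were tested on simulated data. Groups came from the labels. Alternatives were DESeq2 1.42.0, other scalings, filters, covariates, sets of libraries, single lanes and leaving out each eye.

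Both tissues came from the same eye, so that eye numbers pair the libraries. Deviations from the group means over the 1000 most variable genes correlated within each eye (0.288, 0.167, 0.234 and 0.232), but only at 0.0395 in RM03 and 0.0122 in RM04 when taken from the mean of each animal's eyes, so that the correlation lay mostly between the animals. A fit with the eye as a replicate block was run as an alternative. Fellow eyes of 1 animal are not independent animals.

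The comparison, its 33 gene lists (648 symbols) and the rules for naming genes were chosen with earlier results of these data known. Named were the 12 called genes with the largest fold changes in each direction among those with at least 100 CPM in the higher tissue and the same direction in 4 of 4 eyes, list members at either end of a list or with a role described, genes with the lowest adjusted p in the interactions, and the 5 genes alike in both tissues with the highest mean CPM. Some genes these rules select are not reported here. Of the 648 symbols, 55 were not analysed here, 15 were below the filter and 578 were tested. Of the list symbols, 75 have several entries, of which the entry with the largest count was used. Promoter sequences and gene lengths were not used here, so levels are compared between tissues and not between genes.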

Additional observations from a re-analysis of the deposited data

Results flagged for a closer look

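Among 462 sets of 4 eyes (named genes and list sums in each tissue, and the percentages of transcripts of the other layer), 16 had a highest or lowest eye farther from the rest than Dixon's critical value allows, which chance alone does for about 1 in 20 sets. The flagged sets were thus fewer than that share. RM03 OS in RPE/choroid held 8 of the 16. There it was the highest eye for COL4A1 at 252 CPM, COL4A2 at 401 CPM, COL1A2 at 1652 CPM, CFTR at 7.83 CPM, RXRG at 24.2 CPM and BDNF at 2.35 CPM, and the lowest for CRABP1 at 2.64 CPM and NRP2 at 314 CPM. The gaps differed in size: the other eyes lay between 4.35 and 5.96 CPM for RXRG but between 321 and 322 CPM for NRP2. The collagens of basement membranes COL4A1 and COL4A2 were thus high in the same library as the Schwann cell genes, and RXRG and BDNF, which were higher in retina, had there their highest level in RPE/choroid. In the same eye's retina, PMEL was the highest at 37.8 CPM and MYH11 the lowest at 2.88 CPM. Whether these levels share a source was not tested.

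In the retina of RM03 OD, ABCC9 was high at 2.83 CPM and RBPMS2 at 3.24 CPM, and TTR was low at 318 CPM and SAG at 11303 CPM. The other eyes lay between 638 and 678 CPM for TTR and between 12304 and 12319 CPM for SAG. In its RPE/choroid, GNAT2 was high at 5.06 CPM and SLC17A6 at 1.73 CPM, genes of cones and ganglion cells that were higher in retina in every eye. Neither eye of RM04 had such a value in either tissue.

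The tissue difference of MAOB differed between the animals by -2.51 on the log2 scale. That between the periphery and the other locations differed by 2.48 for SORBS2, 1.44 for MSN, -1.55 for YWHAG and -1.87 for KNDC1, each past the threshold in the test of the difference itself.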

How the results depend on the processing

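Of 109 counts and percentages recomputed under the alternatives, 98 stayed within 1.5 times the reported count or within the spread between eyes. For the RPE transcripts in retina that spread was wider than the mean (17.4 ± 20.8%). Their 7.14% without RM03 OS is therefore among the 98. Genes at least 8-fold higher in retina numbered 577 in place of 1046 when at least 10 counts were required in every library, an alternative that tests fewer genes: depth limits those with few counts in RPE/choroid, which it removes. Genes alike in both tissues numbered 882 to 1274 with an eye left out, in place of 1507, with fewer libraries behind each interval. The tissue difference differed between the animals for 554 genes with DESeq2, 0 with the eye as a replicate block and 0 to 2 with an eye left out; why the tools differ was not tested. With the perimacula alone as the comparison, 3099 genes differed at the periphery (1743 above and 1356 below) in place of 5796. The fold change of VEGFA turned from 0.07 to -0.35 without RM03 OS, and lay between -0.35 and 0.25 over the eyes left out. Of 169 called genes named here, 155 were called under every one of the 15 alternatives that apply to them, and 14 were lost under at least 1. The replicate block lost 6 of them, each given in the report, and changed no other named call. The folds of 46 of them moved by more than 1.5 times with an eye left out, 35 without RM03 OD, 12 without RM03 OS, 8 without RM04 OD and 3 without RM04 OS, and those printed are given in the report with both values. Of the 33 lists, 19 had a changed count without RM03 OS, by at most 2 genes, and with other eyes left out a count changed by at most 5. Requiring 10 counts in every library also reduced list counts in one direction: amacrine and horizontal cell genes in retina from 13 to 8, ganglion cell genes from 11 to 7, those of lymphocytes, mast cells and plasma cells in RPE/choroid from 11 to 5 and transcription factors there from 17 to 11. Lymphocyte, mast cell and plasma cell genes higher in retina numbered 2 in place of 0, and ribosomal protein genes higher in retina 3 in place of 1, with DESeq2 and with 24 or 32 libraries fitted together. Immediate early genes in RPE/choroid fell from 8 to 5 without RM04 OD, and ciliary body, iris and scleral genes from 5 to between 2 and 3 with single lanes, the strict filter or without an eye of RM04.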

Other observations

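NDUFA1, a subunit of complex I, has a pair of entries in the gene table, and each was almost confined to 1 animal in both tissues. It belongs to the oxidative phosphorylation list above, where only its entry with the largest count was read. In retina, the first entry measured 0.0905, 0.137, 146 and 102 CPM and the second 118, 141, 0.0696 and 0.359 CPM. In RPE/choroid, they measured 0.106, 0.321, 101.8 and 98.1 CPM and 131, 97.5, 0.0753 and 0.101 CPM. The sum of both entries of NDUFA1 lay between 97.9 and 146 CPM in all 8 libraries. With a mean of at least 10 CPM, 4 entries were at least 10-fold higher in every library of RM03 than in any of RM04, 5 were so in RM04, and 1 symbol, NDUFA1, had an entry each way. How reads were shared between near-identical entries was not tested.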
